A study of Sus scrofa with 85 samples.

Results

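A set of genes was studied whose mean level in the infarcted region was lower at 1–3 h than before the occlusion, after 2 days and after 14 days. The level of a gene was log2(CPM + 1), where CPM is the gene's count scaled to a common library total. The members were chosen by these levels as the 150 genes with the largest fall, measured as the lowest of the baseline, 2-day and 14-day apical means minus the 1–3 h apical mean, among the 8602 genes with a baseline mean of 3 to 7. Of the 150, 2 identifiers were removed. The 8602 genes, of 31907 counted, are the background range below. A gene symbol was given for 77.0% of the members and 34 had none. Since the apical baseline, 1–3 h, 2-day and 14-day libraries chose the members, their values there are a description and were not tested.

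The libraries came from micro-EMB, small catheter biopsies of the left ventricle, taken repeatedly from 3 female farm pigs of mixed Yorkshire-Swedish breed, for which no genetic change was described, labelled swine 1640, 1644 and 5385. Their ages were not given in the sources used here. A balloon closed the distal left anterior descending artery for 1 h, and the artery was then reopened. Every animal was its own control. Anaesthesia was started with propofol or pentobarbital and kept up with pentobarbital or isoflurane, with fentanyl, and which animal or session had which was not given in the sources used here. Before each session the animals were sedated with tiletamine, zolazepam and medetomidine. Amiodarone was given around the occlusion only. Against pain, buprenorphine and meloxicam were given daily after the intervention, for a number of days not given in the sources used here. Apical biopsies were aimed at the infarcted region and lateral biopsies at non-infarcted myocardium. The 0–1 h samples were taken during the occlusion, the 1–3 h samples after reperfusion, and blood was sampled as well. The baseline biopsies are labelled apical, though the study's methods say that no region was targeted. There was no sham-operated animal, so time, anaesthesia, amiodarone, pain treatment and repeated biopsy cannot be told apart from the occlusion.

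Of 85 sequenced libraries, 57 were usable (45 myocardial and 12 blood), with 3499443 to 16659110 counts and a median of 7782629. There were 4 apical baseline libraries. The 0–1 h, 1–3 h, 2-day and 14-day groups held 5, 9, 4 and 7 apical and 3, 3, 4 and 6 lateral libraries. Blood gave 1 baseline, 2 1–3 h, 4 2-day and 5 14-day libraries. In 6 of the 45 myocardial libraries the cardiomyocyte markers summed to only 57.9 to 737.3 CPM, against 6701.5 CPM or more in the others, while the fibroblast markers summed to 14436.9 to 83627.0 CPM. These were 1 baseline, 1 apical 0–1 h, 1 apical 1–3 h, 1 apical 2-day, 1 apical 14-day and 1 lateral 1–3 h library, and they also stood apart on the second principal component. In tissue of this kind, fewer cells of a type and less RNA per cell cannot be told apart.

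The first hours after a coronary occlusion are known for immediate early genes, such as FOS, EGR1 and ATF3, that are transcribed quickly and whose transcripts are short-lived. The share of a transcript in total RNA can fall through less synthesis, faster decay, a change in cell makeup or a rise of other transcripts, and counts do not separate these. Among the members were genes of several roles, including cilium and centrosome proteins, receptors and a transcription factor of the heart, regulators of growth, and enzymes and carriers.

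To show what lies in front of 5 members described below, the 250 bases upstream of the RefSeq start are printed 5′ to 3′ on the gene's strand. They are SLC40A1 (chr15:94161794-94162043, minus strand), LRIG3 (chr5:24117972-24118221, minus), MXD4 (chr8:1216808-1217057, minus), TBX5 (chr14:37771955-37772204, plus) and IGF1 (chr5:81761777-81762026, plus), all in the Sscrofa11.1 build. Capitals mark matches on either strand to the GC box (GGGCGG), the reversed or forward CCAAT box, or the E-box that reads CACGTG.
SLC40A1: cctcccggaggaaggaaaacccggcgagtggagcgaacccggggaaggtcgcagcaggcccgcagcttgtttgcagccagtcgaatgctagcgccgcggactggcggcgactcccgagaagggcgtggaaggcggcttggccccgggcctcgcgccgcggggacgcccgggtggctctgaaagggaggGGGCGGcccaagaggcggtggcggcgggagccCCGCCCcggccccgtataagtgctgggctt
LRIG3: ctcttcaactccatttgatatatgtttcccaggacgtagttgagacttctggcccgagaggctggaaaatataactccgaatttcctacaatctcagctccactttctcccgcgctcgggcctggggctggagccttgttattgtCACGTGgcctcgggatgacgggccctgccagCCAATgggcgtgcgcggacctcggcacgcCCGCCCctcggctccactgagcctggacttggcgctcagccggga
MXD4: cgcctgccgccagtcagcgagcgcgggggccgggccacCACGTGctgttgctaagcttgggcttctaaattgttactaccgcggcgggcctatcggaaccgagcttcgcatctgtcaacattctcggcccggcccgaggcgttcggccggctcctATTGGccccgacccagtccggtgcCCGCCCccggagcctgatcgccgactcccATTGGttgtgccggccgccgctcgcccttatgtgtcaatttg
TBX5: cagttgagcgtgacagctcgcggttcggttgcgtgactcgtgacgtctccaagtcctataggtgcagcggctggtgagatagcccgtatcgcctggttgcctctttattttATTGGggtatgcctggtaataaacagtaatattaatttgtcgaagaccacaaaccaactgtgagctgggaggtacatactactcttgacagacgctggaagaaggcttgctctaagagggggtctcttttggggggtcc
IGF1: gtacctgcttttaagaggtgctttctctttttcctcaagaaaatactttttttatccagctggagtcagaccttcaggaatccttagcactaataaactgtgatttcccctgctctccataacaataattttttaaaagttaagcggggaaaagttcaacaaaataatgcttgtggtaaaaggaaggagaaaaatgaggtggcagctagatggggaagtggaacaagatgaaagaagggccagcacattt
The upstream stretches of LRIG3 and MXD4 each held all 3 motifs, that of SLC40A1 held the GC box alone, that of TBX5 held the CCAAT box alone and that of IGF1 held none of these. Of 19498 upstream stretches of the same length, 46.0% held the GC box, 31.9% the CCAAT box and 6.4% the E-box. Also searched were the TATA box (TATAAA, held by 9.76%), the CRE (TGACGTCA, held by 1.7%) and a forkhead motif (GTAAACA, held by 2.27%), and none of the 5 stretches held these. The motifs do not overlap one another in these stretches, and a match is not evidence of binding.

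Of all members, 71.6% matched 1 RefSeq gene on a chromosome, and these lay on 18 chromosomes. Among them, 38 members (35.8%) overlapped a gene on the opposite strand, among them LRIG3, TBX5, IGF1, ANKAR and IFFO1, whose span overlaps that of GAPDH. Reads were counted without regard to strand, so the values of these genes are uncertain to that extent. Only 5 pairs of members lay within 100000 bases of each other, and 1 of these pairs, DDB2 and PACSIN3 on chromosome 2 with 9673 bases between them, had no gene in between.

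The members fell at 1–3 h to a median of 38.3% of their baseline CPM. For this and every percentage of baseline below, the mean log2 levels of the groups were turned back into CPM. Such values are not ratios of mean CPM and can differ from them where libraries spread widely. The median difference between 1–3 h and baseline was −1.26 on the log2 scale, with a range of −2.44 to −0.96, against a median of −0.23 over the background range. The mean level over the members was 4.53 ± 0.25 (SD, n = 4) at baseline, 3.22 ± 0.59 (n = 9) at 1–3 h, 4.45 ± 0.40 (n = 4) at 2 days and 4.45 ± 0.26 (n = 7) at 14 days. Without the libraries that stood apart, the difference between 1–3 h and baseline in the mean level was −1.16 in place of −1.32. With every library of at least 1000000 counts, also those set aside for the share of their most counted genes, it was −0.67.

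**Figure D1:**
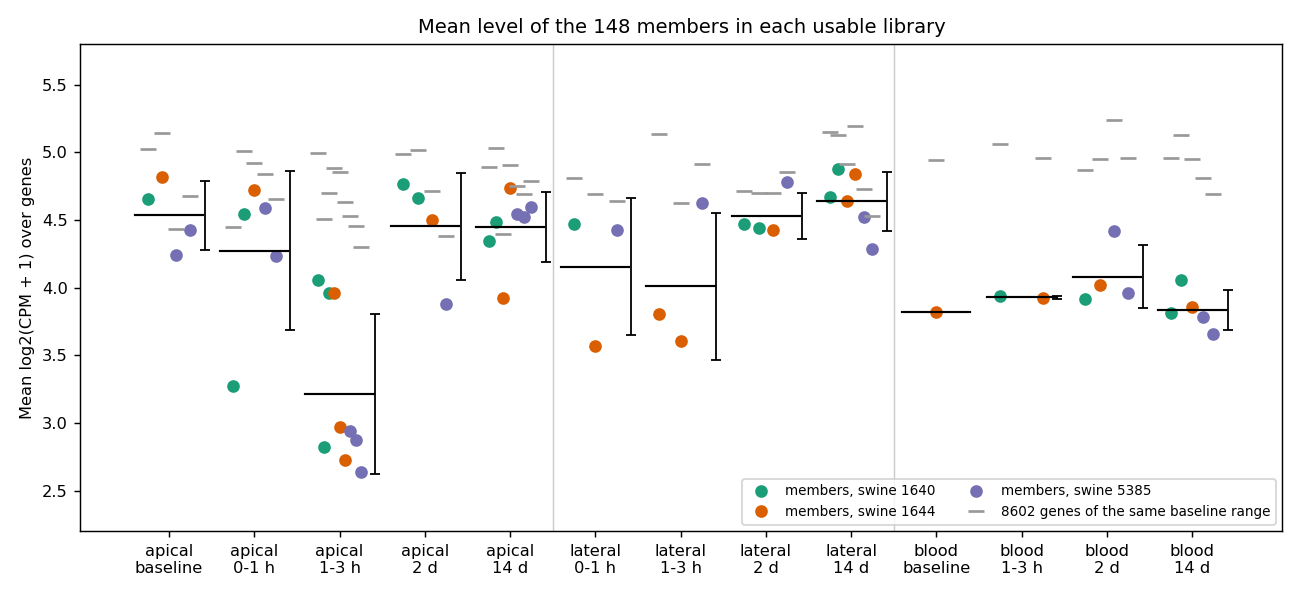
Mean log2(CPM + 1) over the members (points, 1 per usable library, coloured by swine) and over the 8602 genes of the background range (grey dashes), by group. Black lines and bars are the group mean and SD of the members. The 9 apical 1–3 h libraries lie between 2.64 and 4.06, 6 of them at 2.97 or below, and the 3 lowest lateral libraries are all of swine 1644.

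The fall was present in each animal but not equally in each biopsy. Between 1–3 h and baseline the mean level over the members differed by −1.04 in swine 1640 (3 libraries against 1). It differed by −1.60 in swine 1644 (3 against 1) and by −1.51 in swine 5385 (3 against 2). The member medians were −1.05, −1.71 and −1.41, against −0.30, −0.43 and −0.17 over the background range. Of the members, 93.9% were lower in all 3 animals, in libraries that had chosen them. The baseline library of swine 1644 was among those with few cardiomyocyte transcripts, and the part of tissue makeup in its difference was not tested. Among the 9 libraries of 1–3 h, 6 had a mean of 2.64 to 2.97. The other 3, replicates 7 and 11 of swine 1640 and replicate 2 of swine 1644, had means of 3.96 to 4.06. As a common reference for single libraries, a member was counted where it lay below each of the 10 lateral libraries of 2 and 14 days. This held for 85.1% to 94.6% of the members in the 6 lower libraries (22.7% to 44.2% of the background range). In the 3 higher ones it held for 31.1% in replicate 7, 42.6% in replicate 11 and 43.2% in replicate 2, against 6.8%, 18.6% and 20.6% of the background range. The 2 sets of libraries had overlapping sums of early response genes, at 1179.2 to 2960.1 CPM in the lower and 1245.0 to 7170.4 CPM in the higher. The number of genes at 1 CPM or more moved with the split, at 13043 to 15343 in the 6 lower libraries and at 15809, 19682 and 20060 in the 3 higher ones. It was 22743 and 23005 in the 2 libraries of this group that were not usable, where the mean level was 4.67 and 4.76. The part of library quality in the split was not tested.

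**Figure D2:**
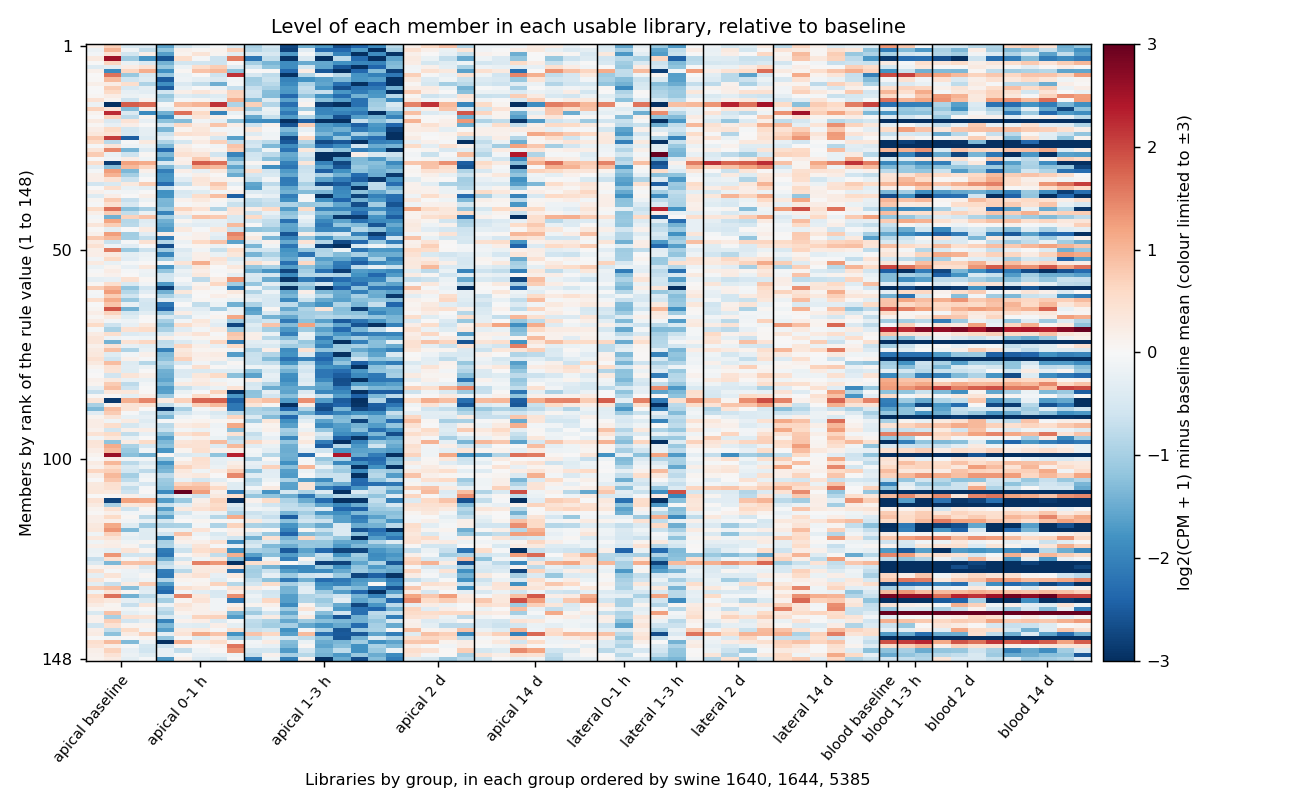
Level of each member (rows, in the order of the rule) in each usable library (columns, by group and swine) minus its baseline mean, as a difference in log2(CPM + 1). Blue marks lower levels. The apical 1–3 h columns are blue for nearly all rows, the blue columns outside them include apical 0–1 h replicate 4 and the early lateral libraries of swine 1644, and the blood columns differ by row.

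Few members separated the times completely. In 7 members all 9 libraries of 1–3 h lay below all 15 of baseline, 2 days and 14 days (0.151% of the background range), namely MXD4, WIPI1, ZDHHC8, IFFO1, PHF19, PLEKHH3 and ANKRD16. In the remaining members at least 1 library overlapped. Just inside the limit of the set were a gene without a symbol at 0.959 and PELI3 at 0.957, and just outside it PYROXD2 at 0.955 and LRIF1 at 0.954, so the set has no sharp edge.

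The largest fall by the rule was that of SLC40A1, ferroportin, the exporter of iron from cells. Its level was 5.74 to 6.93 in the 4 baseline libraries. At 1–3 h the lowest, median and highest of 9 libraries were 3.47, 4.49 and 5.61. At 2 days the 4 libraries were at 5.32, 6.38, 6.77 and 7.05. The 1–3 h mean was 30.0% of baseline in CPM, and the groups overlapped only where the highest 1–3 h libraries met the lowest of 2 days.

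MXD4, a partner of MAX that represses transcription and opposes MYC, stood at 4.95, 5.21, 5.37 and 6.02 at baseline. Its 1–3 h libraries ran from 3.41 to 4.38 with a median of 3.85, and no later apical library was below 4.72. The 1–3 h mean was 31.4% of baseline, and all 3 swine contributed libraries below 4.05. LRIG3, a membrane protein with leucine-rich repeats, fell to 22.3% of baseline but varied more, from 2.74 to 7.06 at baseline and from 0.94 to 4.07 at 1–3 h. These ranges overlapped, with both low baseline values coming from swine 5385.

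**Figure D3:**
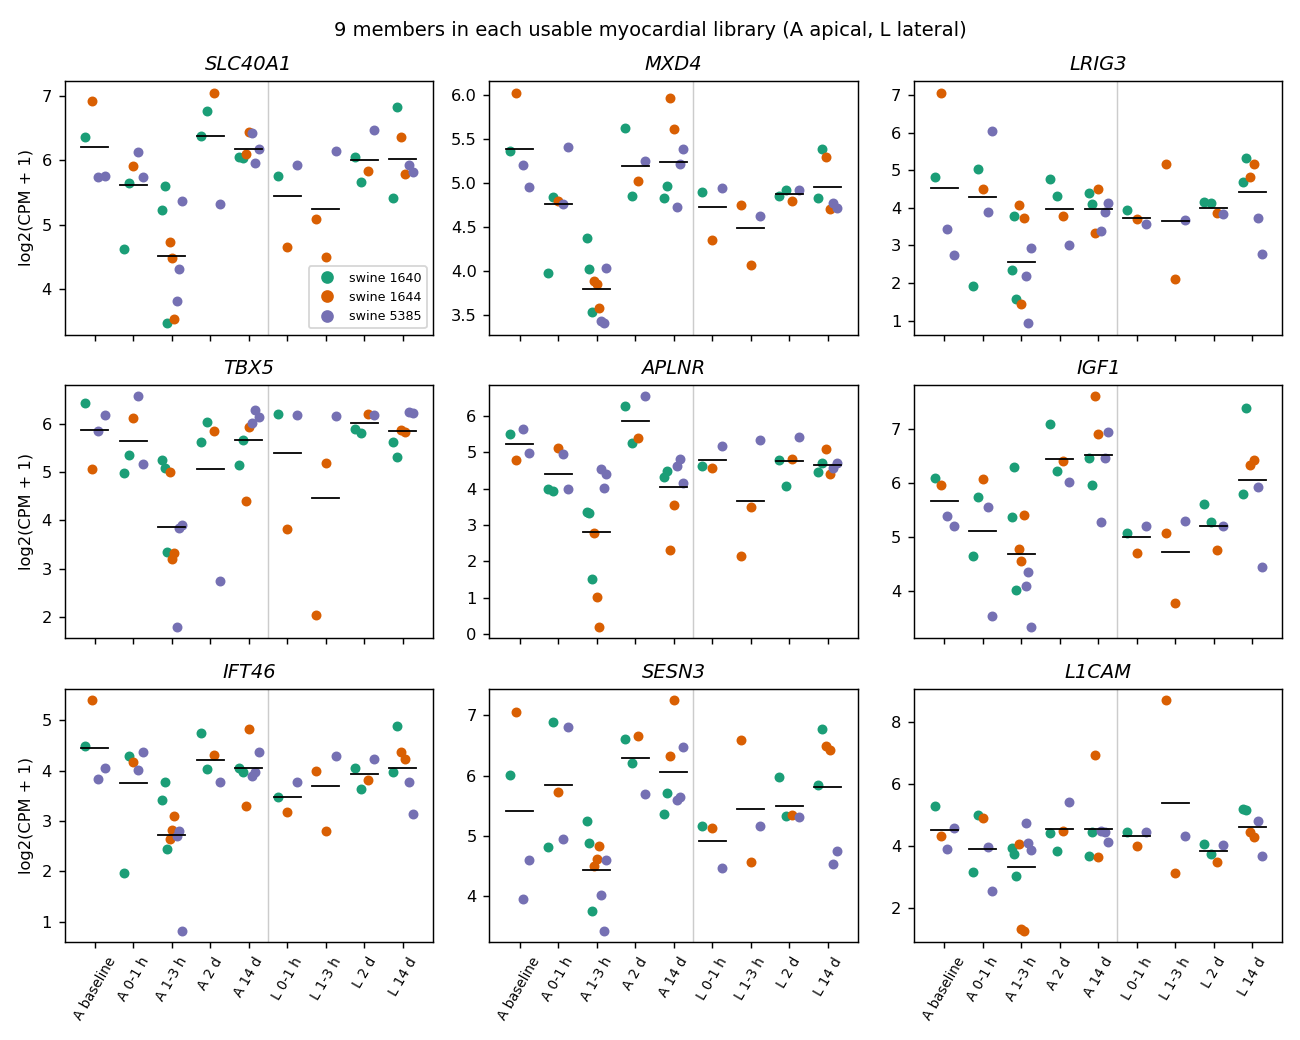
log2(CPM + 1) of 9 members in each usable myocardial library (points, coloured by swine), with group means as black lines. A marks apical and L lateral libraries. In MXD4 the 1–3 h apical libraries lie below every other apical time except 0–1 h, in APLNR and TBX5 they spread widely, and L1CAM has 1 lateral 1–3 h library of swine 1644 at 8.69.

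Members among the 20 with the largest fall had varied roles. DDB2, which recognises ultraviolet damage in DNA, fell to 28.5% of baseline, and TRUB1, which makes pseudouridine in RNA, to 28.8%. ASAP3, an activator of ARF GTPase hydrolysis, was at 38.0%, ZNF782, a zinc finger protein, at 31.1% and ZC3H6, a protein with zinc fingers of another type, at 32.3%. FAM217B, MROH5, TSPYL4, MMP28 (a secreted matrix metalloproteinase) and LRRIQ3 were also among them, as were 4 genes without a symbol. The second largest fall was that of ENSSSCG00000042219, with a rule value of 1.61.

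Proteins of the cilium and centrosome were a group picked out after the values were seen. Of 86 genes with such symbols in the background range, 10 were members, which is 6.76% of the members, while the 86 made up 1.0% of the background range. The list of symbols was also written then and names FBF1 and CDK5RAP2 outright, so these shares are a description only. Of the 86 genes, 78 were lower at 1–3 h than at baseline. Their median difference was −0.57, against −0.23 over the background range. The intraflagellar transport gene IFT46 was at 3.84 to 5.40 in the baseline libraries and had a median of 2.80 at 1–3 h, with 0.82 in the lowest library and 3.78 in the highest. MKS1, of the transition zone at the base of the cilium, was at 2.53 to 3.96 at baseline and at a median of 1.56 at 1–3 h, a fall to 19.3% in CPM. The 1–3 h means of the group ran from that value to 48.1% of baseline in CDK5RAP2, a centrosome protein. BBS2, a part of the complex that carries cargo into cilia, was at 41.2%, and CETN3, a centrin, at 34.7%. CEP85, CEP162, FBF1, CFAP418 and DNAI7 made up the rest.

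Genes with known roles in the heart or its vessels were also put together after the values were seen, and no test was made of the group. TBX5, a transcription factor that patterns the heart, was at 5.06, 5.85, 6.17 and 6.42 at baseline. At 1–3 h it ran from 1.80 to 5.25 with a median of 3.84, and the 1–3 h mean was 23.4% of baseline. At 2 days the 3 other libraries were at 5.63 to 6.03 and replicate 6 of swine 5385, which had few cardiomyocyte transcripts, was at 2.75. TBX5 was the only member among 16 heart transcription factors of the background range.

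APLNR, the receptor of apelin on endothelium and heart muscle, was at 4.80 to 5.64 at baseline and had its lowest, median and highest 1–3 h libraries at 0.19, 3.34 and 4.54. The lowest 1–3 h values were those of swine 1644, and its libraries of swine 5385 stood at 4.01 to 4.54. The 1–3 h mean was 16.3% of baseline. IGF1, a growth factor, was at 5.19 to 6.10 at baseline and at 3.34 to 6.28 at 1–3 h with a median of 4.55. At 2 and 14 days its mean was 6.43 and 6.51, and its 14-day libraries, at 5.28 to 7.59, overlapped those of baseline.

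GHSR, the ghrelin receptor, was at 40.5% of baseline at 1–3 h, TRPM4, a cation channel opened by calcium, at 35.5%, and RXFP1, the relaxin receptor, at 42.8%. OBSL1, a cytoskeletal adaptor, was at 49.3%, PACSIN3, which bends membranes, at 41.4% and RGMA, a co-receptor of bone morphogenetic proteins, at 37.1%. ACTA2, the actin of smooth muscle and the only cell type marker in the set, was at 40.4%. The other markers of its list, that of vessel wall (mural) cells, did not all fall. Of 4 mural markers in the background range, ACTA2 included, 2 were lower at 1–3 h than at baseline. The mural markers summed to a median of 648.2 CPM at apical baseline and 677.8 CPM at apical 1–3 h. The mean of ACTA2 at 0–1 h rested on 1 library of swine 1640 at 9.96, while the other 4 were at 3.64 to 6.93.

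Regulators of growth, survival and DNA repair included SESN3, a sestrin induced by stress, which was at 3.96 to 7.06 at baseline and at 3.43 to 5.25 at 1–3 h, 49.7% in CPM. PIK3IP1, an inhibitor of PI3 kinase, was at 5.15 to 5.81 at baseline and at 3.11 to 4.70 at 1–3 h, with no overlap between these times and a fall to 28.6%. BMF, which promotes apoptosis, was at 43.3%, CDC25B, a phosphatase that starts mitosis, at 42.5% and BARD1, the partner of BRCA1, at 43.7%. Among enzymes, ALDH1L2 of folate metabolism was at 42.1%, ALDH2, which removes aldehydes, at 46.5% and PANK1, of coenzyme A synthesis, at 43.5%. WIPI1, an autophagy protein, was at 42.6%.

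Most pathway lists held few members or none, and since the members made up 1.72% of the background range, a list of the sizes given here would often hold 0 or 1. The set held BHLHE41, a clock repressor, of 15 clock genes in the background range, SIX5 of 12 homeobox genes, and 5 of 196 zinc finger genes (ZNF782, ZNF483, ZNF514, ZNF436 and ZNF84). There were 4 of 125 solute carriers (SLC40A1, SLC25A40, SLC38A9 and SLC25A27) and 2 of 37 regulators of small GTPases (ARHGEF25 and ARHGAP33). The list of adhesion and orphan receptors coupled to G proteins held 1 member among 27 genes (GPR155). Other receptors in the set, such as GHSR and RXFP1, were not on it. Of 10 genes of the VEGF and angiopoietin list, 1 was a member (APLNR). FBXL4 was the only member from the list of F-box, KLHL, TRIM and RNF genes. That list and those of homeobox genes, zinc finger genes, solute carriers, regulators of small GTPases and adhesion and orphan receptors were drawn up by symbol. The lists for fatty acid oxidation, branched-chain amino acid breakdown, the Notch pathway, the respiratory chain and splicing held no member, although 14 of 15, 17 of 17, 12 of 12, 52 of 56 and 27 of 45 of their genes in the background range were lower at 1–3 h than at baseline. Of the whole background range, 66.1% were lower. The 12 early response genes in the range had a median difference of 1.95 and held no member.

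A further question was whether the members were already lower during the occlusion. The 0–1 h libraries took no part in the choice of members, but the baseline and 1–3 h means did, so 0–1 h values set beside those means are a description. At 0–1 h in the apical region the mean level was 4.27 ± 0.58 (SD, n = 5). Of the members, 78.4% lay between their baseline and 1–3 h means, 32 members lay above baseline and none lay at or under the 1–3 h mean. Since members were chosen for a wide gap between these means, the choice itself favours values between them. The median difference from baseline was −0.24, against −0.07 over the background range. The difference in the mean level was −0.26, and without replicate 4 of swine 1640 it was −0.01.

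That library was the one that stood low at 0–1 h. Its mean level was 3.28, the others were at 4.24, 4.55, 4.59 and 4.72, and 77.7% of the members lay below each lateral library of 2 and 14 days, against 40.5% of the background range. In the other 4 this held for 2.7% (replicate 1), 1.35% (replicate 2), 34.5% (replicate 3) and 8.78% (replicate 5) of the members, and for 2.44%, 3.13%, 29.2% and 5.21% of the background range. The early response genes of replicate 4 summed to 4671.8 CPM, against 358.2 to 958.0 CPM in the other 4. Its level of IFT46 was 1.96 and of GHSR 2.96, where the other 4 libraries were at 4.01 to 4.37 and at 5.41 to 5.68. The labels do not say at which minute each biopsy was taken, and the part of time in this split was not tested. Within swine, the 0–1 h difference from baseline was −0.74 in swine 1640 (2 libraries against 1). It was −0.10 in swine 1644 (1 against 1) and 0.08 in swine 5385 (2 against 2). The baseline library of swine 1644 was the one with few cardiomyocyte transcripts. The member medians were −0.75, −0.26 and 0.15, and those of the background range −0.34, −0.31 and 0.22.

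Against the lateral libraries of 2 and 14 days, none of the members passed an adjusted p of 0.05 at apical 0–1 h in edgeR's quasi-likelihood test (percent called over 17923 genes: 0 in either direction). The median log2 fold change was −0.23 (−0.01 over all genes), and 76.4% were negative (51.6% of all genes). At an unadjusted p under 0.05, 4 members were lower (0.625% of all genes) and 3 higher (4.08%), and DESeq2 and limma-voom also called none. The smallest p was that of ISLR, a secreted protein of fibroblasts, which was higher, with a log2 fold change of 1.49 (SE 0.50, p = 0.00726 and adjusted p = 0.674 in edgeR). ISLR was at 6.49 in the apical 0–1 h library with few cardiomyocyte transcripts and at 2.98 to 4.23 in the other 4. This comparison also crosses regions, since the baseline and later apical libraries had chosen the members.

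At 0–1 h the members did not separate the regions by any test. The median fold change of apical against lateral was 0.04 on the log2 scale (0.05 over all genes), 69 members were negative, and none passed in edgeR, with 0 members at an unadjusted p under 0.05 lower (0.257% of all genes) and 2 higher (0.58%). DESeq2 and limma-voom called none either. The sign of the median rested on single libraries, at −0.20 without lateral 0–1 h replicate 1 of swine 1644 and 0.24 without lateral 0–1 h replicate 2 of swine 5385. The member with the smallest p was again ISLR (log2 fold change 1.61, SE 0.73, p = 0.039 and adjusted p = 1.0 in edgeR).

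The next question was whether the non-infarcted region changed with the infarcted one. In the lateral region the mean level was 4.16 ± 0.51 (SD, n = 3) at 0–1 h and 4.01 ± 0.54 (n = 3) at 1–3 h. After 2 days it was 4.53 ± 0.17 (n = 4) and after 14 days 4.64 ± 0.22 (n = 6). At 1–3 h against 2 and 14 days, 90.5% of the members had a negative fold change, against 54.9% of all genes, with a median of −0.50 against −0.07. None passed in edgeR (0% of 17923 genes called lower and 0.067% higher). At an unadjusted p under 0.05, 14 members were lower (9.46%, against 0.982% of all genes) and 1 was higher (7.97% of all genes). The count of 14 was 1 without replicate 4, 2 without replicate 5 and 42 without replicate 6. In 1 member all 3 libraries of 1–3 h lay below all 10 later ones (0.116% of the background range), as did the 3 of 0–1 h in 1 member (0.384%). DESeq2 gave 35 lower at an unadjusted p under 0.05 and limma-voom 33. DESeq2 called 1 member, which was higher, and limma-voom called none.

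The smallest p among negative members was that of GHSR, whose lateral libraries of 1–3 h were at 3.26, 3.95 and 5.50 and whose 10 later ones were at 5.19 to 6.50. Both low libraries were of swine 1644. Its log2 fold change was −1.36 (SE 0.47, p = 0.00854 and adjusted p = 0.256 in edgeR). The member with the smallest p of all was L1CAM, an adhesion molecule of nerve cells, with lateral 1–3 h levels of 3.14, 4.32 and 8.69 and later levels of 3.49 to 5.21. Its log2 fold change was 2.81 (SE 0.60, adjusted p = 0.0596 in edgeR), set by the single library at 8.69. That library, replicate 4 of swine 1644, was also the lateral library with few cardiomyocyte transcripts. It was this gene that DESeq2 called.

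At lateral 0–1 h none of the members passed in edgeR, DESeq2 or limma-voom. The median fold change was −0.28 on the log2 scale (−0.07 over all genes), 79.7% of the members were negative (58.0% of all genes), and 2 members were lower at an unadjusted p under 0.05 (0.435% of all genes) and 0 higher (1.96%). Without replicate 1, the library of swine 1644, the median was 0.03. LRRIQ3 had the smallest p, with a log2 fold change of −0.92 (SE 0.41, p = 0.0354 and adjusted p = 1.0 in edgeR).

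The early lateral libraries differed by animal. The 3 of swine 1644, 1 of 0–1 h and 2 of 1–3 h, had mean levels of 3.57, 3.60 and 3.81. The other 3 were at 4.42 and 4.63 in swine 5385 and at 4.47 in swine 1640, and the 10 later ones at 4.28 to 4.88. In 46 members all 3 early libraries of swine 1644 lay below all 10 later lateral libraries of the 3 animals, against 5.14% of the background range, while for the 3 early libraries of the other animals this held for 0 members and 0.0698% of the range. The sums of early response genes were 1956.9, 2317.2 and 3750.2 CPM in the early lateral libraries of swine 1644 and 188.3 to 382.5 CPM in the other 3. These libraries were already known to be high in early response genes when the animals were compared, so the split is not independent of that knowledge, and whether these biopsies reached tissue at risk was not tested.

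In a fit of the 16 lateral libraries by swine and time, with 0–3 h set against 2 and 14 days, edgeR called 4 members lower in swine 1644 (0.14% of 17842 genes) and 0 higher (2.88%). PANK1 was at 3.53, 3.82 and 4.31 in the 3 early libraries of swine 1644 and at 5.49 to 5.95 in the 10 later lateral libraries, and its log2 fold change was −1.65 (SE 0.34, adjusted p = 0.0171). LYPLAL1, a relative of lysophospholipases, was at 3.83, 4.03 and 4.14 against 4.73 to 6.07 (log2 fold change −1.07, SE 0.25, adjusted p = 0.0310). ANKAR, a protein with ankyrin and armadillo repeats, was at 1.72, 1.95 and 2.08 against 2.39 to 4.54 (log2 fold change −1.76, SE 0.43, adjusted p = 0.0418). In all 3 genes the early libraries of swine 1644 did not overlap the later ones. The fourth was a gene without a symbol (adjusted p = 0.0377).

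At an unadjusted p under 0.05, 62 members (41.9%) were lower in swine 1644, against 4.24% of all genes, and 89.2% were negative with a median of −0.75 (−0.19 over all genes). In swine 1640 and swine 5385 the medians were −0.04 and −0.10, edgeR called 0 members in each, and 1 member in each was lower at an unadjusted p under 0.05 (0.712% and 0.123% of all genes). The count of 4 was not stable. It fell to 0 without lateral 14 d replicate 1 or lateral 2 d replicate 4, both of swine 1644, and rose to 12 without lateral 14 d replicate 2. These p-values measure the spread between biopsies, pooled over the 3 animals with 10 residual degrees of freedom, and the single early library of swine 1640 was assumed to vary like the others.

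**Figure D4:**
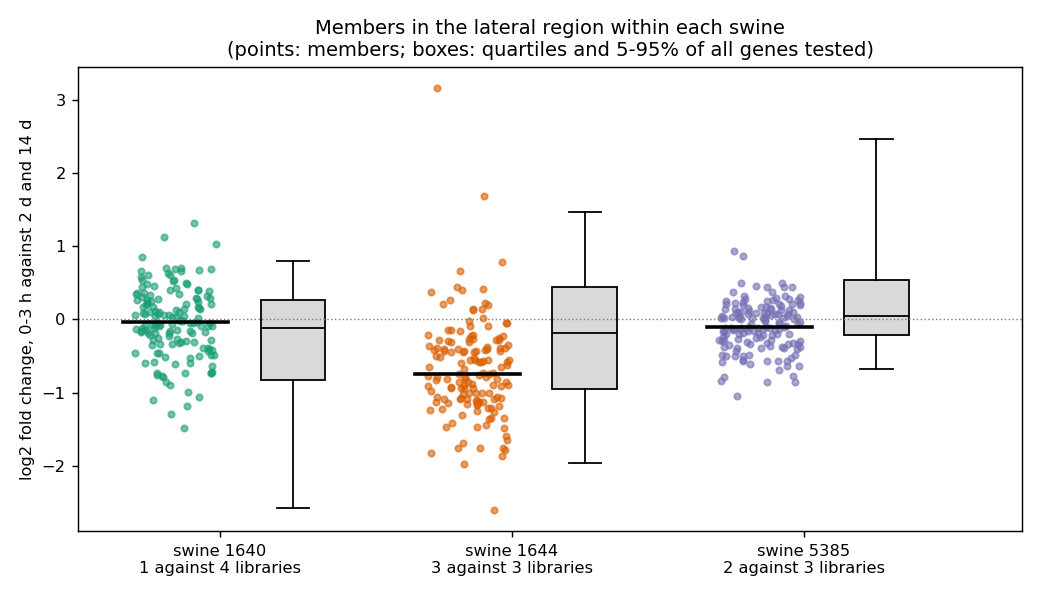
log2 fold change of each member (points) between early (0–3 h) and later (2 d and 14 d) lateral libraries in each swine, with the member median as a black line. Grey boxes give the quartiles of all 17842 genes tested and whiskers their 5–95% range. The median is −0.75 in swine 1644, −0.04 in swine 1640 and −0.10 in swine 5385.

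The difference between the animals was tested itself. In an F test of swine by time none of the members passed in edgeR, and 36 genes of 17842 did, all higher in swine 1644 (0.202%). At an unadjusted p under 0.05, 11 members differed in the direction of a lower early level in swine 1644 (7.43%, against 1.28% of all genes) and 0 in the other direction (4.58%). The smallest p was that of ARHGAP33 (p = 0.00398 and adjusted p = 0.32 in edgeR), and ANKAR and PANK1 had adjusted p-values of 0.375 and 0.44. For no single member was a difference between the animals thus shown.

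Blood carried the members at other levels than myocardium. Averaged over members, the level was 3.82 in the baseline library and 3.93 ± 0.01 (SD, n = 2) at 1–3 h. The 2-day and 14-day means were 4.08 ± 0.23 (n = 4) and 3.83 ± 0.15 (n = 5). Compared with baseline myocardium, 65 members were higher in blood after the occlusion and 83 lower, with a median difference of −0.24, against 0.41 over the background range. In 27 members all 12 blood libraries lay below all 4 baseline myocardial libraries (10.1% of the background range), and in 11 all lay above (21.7%).

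The members lowest in blood relative to baseline myocardium were OBSL1 (a difference of −5.45 in log2(CPM + 1)), APLNR (−4.84), PACSIN3 (−4.64), RGMA (−4.62) and CCDC8 (−4.34). The highest were ENSSSCG00000025631 (3.60), CDC25B (2.60), SESN3 (2.46), GPR155 (1.88) and a gene without a symbol (1.62). SESN3 was at 7.09 to 8.49 in the 12 blood libraries with a median of 8.0, above every myocardial library of 1–3 h. SLC40A1 was at 4.74 to 7.5 in blood, which overlapped its baseline range in myocardium. In myocardium the neutrophil markers summed to 0.5 to 40.4 CPM and the lymphocyte markers to 2.5 to 55.6 CPM, against 266.5 to 655.2 CPM and 462.6 to 830.2 CPM in blood. The erythroid markers differed by animal. They summed to 661.2 to 5896.8 CPM in the myocardial libraries of swine 5385, to 7.3 to 174.4 CPM in those of swine 1644 and to 15.9 to 66.0 CPM in those of swine 1640, against 3453.4 to 14133.1 CPM in blood. The part of erythroid RNA in the levels of swine 5385 was not tested.

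**Figure D5:**
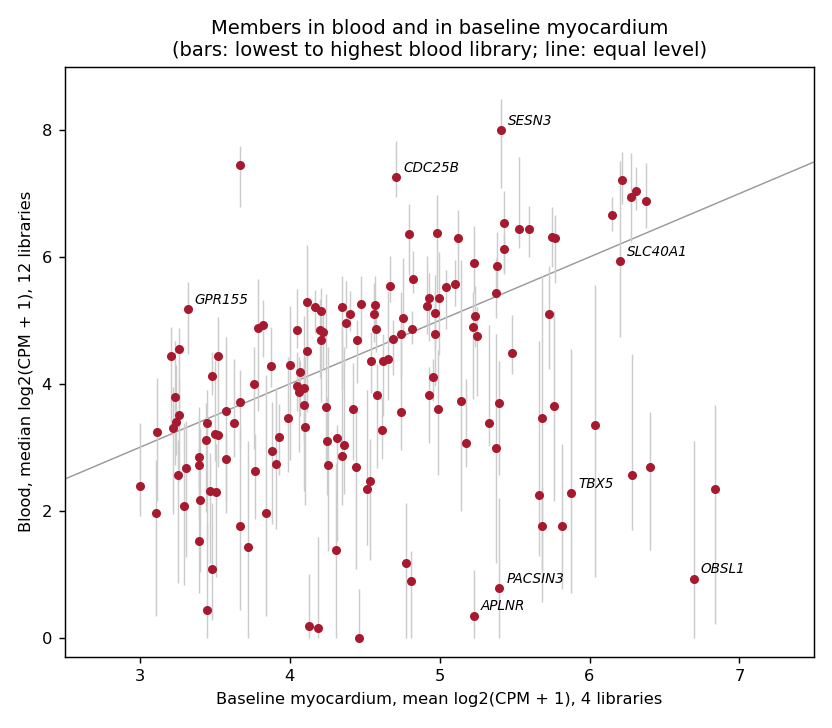
Median log2(CPM + 1) of each member in 12 blood libraries (vertical bars from the lowest to the highest) against its mean in 4 baseline myocardial libraries. Members under the line of equal level are lower in blood. OBSL1, APLNR and PACSIN3 lie far below the line, and SESN3, CDC25B and GPR155 above it.

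Blood was tested at 1–3 h against 2 and 14 days, with 2 libraries at 1–3 h. Of the members, 4 did not pass the filter on low counts. None of the others passed in edgeR (0% of 18956 genes in either direction), and DESeq2 and limma-voom called none. The median log2 fold change was −0.12 (−0.08 over all genes), 95 members were negative, and at an unadjusted p under 0.05 there were 3 lower (1.76% of all genes) and 2 higher (1.32%). The smallest p was that of ENSSSCG00000025631 (log2 fold change −0.79, SE 0.25, p = 0.00658 and adjusted p = 0.983 in edgeR).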

How the data were processed

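The authors sequenced total RNA (SMARTer Pico stranded libraries) and deposited a table of raw counts per gene for all libraries. Per their notes, reads were aligned with STAR to Sscrofa 11.1 and counted with featureCounts, without strand. Tool versions are not given in the sources used here.

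Groups followed the labels. Libraries were usable with at least 1000000 counts and 7% to 60% of counts in the 10 most counted genes, which left out 28. Of these 1 was too shallow, 25 were under 7% and 2 over 60%. CPM was computed from the counts as deposited and levels are log2(CPM + 1). Total counts limit precision: at a level of 3, a library of median depth holds 54.5 counts.

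Tests used edgeR 4.0.16 (R 4.3.3), TMM scaling and the quasi-likelihood test, on genes reaching 1 CPM in 20% of the libraries, with Benjamini-Hochberg adjustment over all genes. Standard errors were derived from the F statistics. The heart fit held 21 libraries (apical 0–1 h and lateral, 17923 genes) and the blood fit 12 (18956 genes). DESeq2 1.42.0 and limma 3.58.1 (voom) were alternatives. The labels tie each library to 1 of the 3 swine, which pairs libraries of an animal. Deviations from group means correlated at 0.071 within a swine (56 pairs) and −0.030 otherwise in the heart, and at 0.056 (12 pairs) and −0.026 in blood. P-values measure the spread between biopsies of 3 animals, not between independent animals. Extraction batches were not given per library.

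The members, the role groups and the pathway lists were chosen with earlier results of these data known. Named were the 20 members of largest fall, the genes at the edge of the set, the smallest p per comparison, members of each list, the extremes in blood and cell type markers. Other genes were named after their values were seen, at most 2 of them by identifier. The scripts were tested on counts simulated with known fold changes. At lateral 1–3 h edgeR recovered 4% of genes changed by 1 log2 unit and 50.3% of those changed by 2. In blood it recovered 11% and 60.3%, and in the fit of swine 1644 0% and 7.67%. For swine 1644 the simulated spread was estimated by group without regard to swine, unlike in the fit itself. Recovery in that fit may therefore differ from these values. Of the calls at lateral 1–3 h, 2.98% were false in edgeR, 10.5% in limma-voom and 32.8% in DESeq2. A count of 0 called members therefore does not show that the members were unchanged. Upstream sequences and positions are from RefSeq (Sscrofa11.1). A check of base composition and length was void, since only 71.6% of the members had a position.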

Additional observations from a re-analysis of the deposited data

Results flagged for a closer look

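In groups of 4 to 10 libraries, a highest or lowest library was singled out where its gap to the nearest other exceeded the 95% limit of Dixon's test. This was done for the mean level of the members, that mean minus the mean of the background range, and the 20 members of largest fall. Of 198 groups, 16 held such a library, and 1 in 20 would be 9.9. These counts are no test of chance, since the groups include the apical libraries that chose the members.

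For the set as a whole, lateral 2 d replicate 3 (swine 5385) was high, with a mean level of 4.78 and a difference from the background range of −0.074. Apical 0–1 h replicate 4 (swine 1640) was low, with a difference of −1.17, and it was also low in IFT46 at 1.96, ZC3H6 at 3.28 and ZNF782 at 2.71. Apical 14 d replicate 5 (swine 1644), which had few cardiomyocyte transcripts, was low in TRUB1 at 2.94, ZC3H6 at 4.77, ZNF782 at 2.97 and a gene without a symbol at 2.5. Apical 2 d replicate 6 (swine 5385), another such library, was low in ZNF782 at 3.18 and LRRIQ3 at 3.18. IFT46 was low in apical 1–3 h replicate 9 at 0.82, ENSSSCG00000042219 in lateral 14 d replicate 5 at 3.15 and ZNF782 in blood 2 d replicate 4 at 3.5. LRIG3 was high in blood 14 d replicate 5 at 3.20.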

How the results depend on the processing

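Membership depended on the summary. Of the members, the rule chose 93.2% again with a pseudocount of 0.5, 85.1% with 2, 93.2% with TMM-scaled sizes and 79.7% with means over swine, but only 70 members with group medians, 72 with every library of at least 1000000 counts and 76 without the libraries apart on the second component. Leaving out 1 library chose 68.9% to 98.6% again, 68.9% without apical 2 d replicate 6. With every library of sufficient depth, the difference in the mean level between apical 1–3 h and baseline was −0.67 in place of −1.32, and leaving out 1 library gave −1.42 to −1.22.

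At apical 0–1 h the difference was −0.26, and 0.080 in swine 5385. It was −0.37 to −0.01 when leaving out 1 library, with −0.01 without apical 0–1 h replicate 4, −0.17 without baseline replicate 1, and −0.16 without the apart libraries. At lateral 1–3 h it was −0.57, 0.035 in swine 5385 and −0.88 to −0.37 when leaving out 1 library. At lateral 0–1 h it was −0.43, −1.01 in swine 1644, −0.28 with TMM-scaled sizes and −0.59 to −0.14 when leaving out 1 library. In blood it was −0.03, 0.28 with every library of sufficient depth, 0.0078 in swine 1640 and −0.056 to 0.028 when leaving out 1 library. The causes were not tested.

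At lateral 1–3 h the count of members called was 0, 1 without the filter on low counts, 1 in DESeq2 and 0 to 2 when leaving out 1 library. The median fold change was −0.38 without the apart library, −0.11 without the early libraries of swine 1644 and −0.74 in swine 1644 alone. With swine as the replicate block the count stayed at 0, with 19 lower at an unadjusted p under 0.05 and a median of −0.53, and the block changed no other call. In swine 1644 the count of 4 became 50 in DESeq2 and 0 to 12 when leaving out 1 library. In lateral 0–1 h, apical 0–1 h and blood the count was 0 under every alternative run, which says little of stability, since the median behind it turned from −0.28 to 0.03 at lateral 0–1 h without replicate 1. Alternatives within a swine, without the early libraries of swine 1644, and leaving out libraries from the mean level were added after the data were seen.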
